A study of Mus musculus with 96 samples.

Results

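Pecam1 and Cd34 are 2 of the 96 genes assayed by quantitative PCR in 96 single cells of the mouse uterus. They were chosen as the assays for CD31 (gene Pecam1) and CD34, 2 surface proteins widely used to mark blood vessels. The rule used gene names and no measured value, though earlier results of these data were known when the pair was picked. All 96 cells came from mice at postnatal day 7, were sorted for CD326 (EpCAM, the epithelial adhesion molecule used as the gate) after the uterus was digested with collagenase, and form 1 group with no treatment, genotype, animal or control named in the labels. Cells of 1 group are not replicates, so every value below describes these cells and no test was possible. Each value is a cycle threshold (Ct), the cycle of the PCR where product first crosses a set level, so that a lower Ct means more template. A gene was counted as detected where its Ct was below 28.

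PECAM1 is an immunoglobulin-family adhesion molecule at the junctions between endothelial cells, and platelets and many leukocytes carry it as well. CD34 is a sialomucin of the capillary endothelium and of blood progenitor cells, and some fibroblasts carry it too. In the uterus the vessels run in the stroma beneath the epithelium, so both are usually taken as markers of cells other than the EpCAM-bearing lining.

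Pecam1 was detected in nearly every cell and Cd34 in about as many cells as not. Pecam1 was found in 93 of 96 cells (96.9%, exact Clopper-Pearson 95% interval 91.1 to 99.4%) and Cd34 in 49 (51.0%, interval 40.6 to 61.4%). These intervals cover counting error only. Both genes lay at 50% of cells or more, as did 53 of the 96 assays (55.2%). By share Pecam1 was level with Bmi1 and the epithelial keratin gene Krt19 at rank 3, behind Gapdh and actin, and Cd34 took rank 52, between Wnt7a and Ncam1 above it and Il17ra and Itga5 below it. No value of either gene lay at 28 or above, so the remaining cells had no Ct at all for them.

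The cells also differed in template as read by Gapdh and in the number of assays detected. The shares of most assays, though not of all, were higher in cells with early Gapdh. The number of assays detected per cell had a median of 54 and a range of 9 to 78, and Gapdh, a glycolytic enzyme gene used here as the measure of template, had a median Ct of 13.4. In 8 cells Gapdh came after a Ct of 18 or was not detected, and these detected 9 to 30 assays. Cell 67, named by its number in the labels, is 1 of the 8 and has no recorded value before row 72 of the table, which includes the rows of both genes. Its lack of Pecam1 and Cd34 is therefore shared with every assay in that stretch. In no assay did 2 cells have the same recorded Ct, so no cell appears to be deposited more than once.

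In most of its cells Pecam1 had a Ct within a span that was narrow next to other assays. In its 93 cells the lowest Ct was 13.4, the median 15.3 and the highest 23.4, with a mean of 15.6 ± 1.54 (SD over cells), and 78 of them lay from 14 up to 17. The interquartile range was 1.23 cycles, against a median of 2.83 over the 78 assays found in at least 20 cells, and only Nes among those assays had a narrower one. The median Ct of Pecam1 was also the third earliest of the 78, after Gapdh and actin. Ct values of different assays depend on primers and are comparable only in rough order.

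Pecam1 and Gapdh were nearly unrelated in Ct. Over the 93 cells with both, Spearman's rho was 0.04 and Pearson's r was -0.04, and without the 2 cells farthest from the median Gapdh Ct they were -0.0021 and -0.11. Among 77 assays found in at least 20 cells this was the lowest rho. The others ran up to 0.79 for actin with a median over all 77 of 0.55, and 57 of them (74%) reached 0.4, which Pecam1 did not. The overall value hid unlike values within the range: rho was -0.22 in the 48 cells with the earlier Gapdh Ct and 0.35 in the 45 detecting cells among the other 48. These correlations are across cells that went through the same kit and chip per the labels, and no p is given.

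Cells with very little Gapdh still gave an early Pecam1 signal. Of the 8 low-Gapdh cells, 5 had Pecam1, with Ct values of 14.8, 15.1, 16.5, 16.6 and 17.5. In those same cells Gapdh came at 18.4, 18.3, 22.9, 21.2 and 20.5, so Pecam1 preceded it in all 5. The cells were picked for late Gapdh, and Pecam1 was not alone in this. Actin also preceded Gapdh in all 5, at 15.6, 17.8, 17.3, 17.6 and 18.2. Bmi1, at 18.8, 16.6, 16.5, 15.9 and 17.5, did so in all but the first. Only 5 assays were found in at least 5 of the 8 cells, namely Gapdh, actin, Krt19, Bmi1 and Pecam1, and the median assay was found in 1. Over all cells with both genes, Pecam1 came earlier than Gapdh in 12 of 93, and earlier than actin in 29 of 93. Cd34 came earlier than either of them in 0 of 49. Whether the Pecam1 assay reads anything other than Pecam1 RNA in these cells was not tested, and its primer sequences were not used here.

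**Figure D1:**
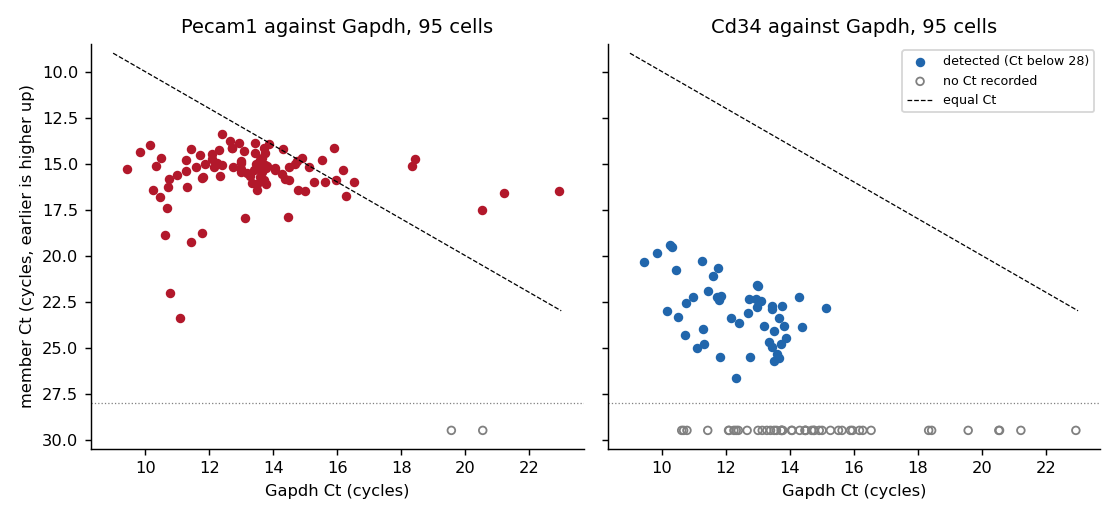
Ct of Pecam1 (left, red) and Cd34 (right, blue) on the y axis against Gapdh Ct on the x axis, in cycles, for the 95 cells with Gapdh; each point is a cell, open circles at the bottom are cells with no Ct for the gene, and the dashed line marks equal Ct. Most Pecam1 values lie from 14 to 17 cycles across the range of Gapdh (rho = 0.04), except for 5 cells after 18 cycles, all with early Gapdh, and Cd34 lies below the line in all 49 of its cells and is found in 1 of the 24 cells with the latest Gapdh.

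Of the 3 cells without Pecam1, cells 1 and 25 had Gapdh at 20.5 and 19.6 and detected 15 and 16 assays. Cell 67 is without Gapdh and Pecam1 through its empty stretch of the table, and its 16 detected assays all lie after that stretch, with Krt18 at 16.4 and Krt19 at 19.5 near their medians of 15.9 and 19.4. Both cells 1 and 25 had Epcam, at 22.4 and 23.4. Without the 8 low-Gapdh cells, Pecam1 was found in 100% of the other 88.

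Bmi1, a Polycomb gene linked to stem cell self-renewal, showed the pattern most like that of Pecam1. It was detected in exactly the same 93 cells. Of 4465 pairs among the assays found in any cell, only 1 other pair, Gapdh with actin, coincided in this way. The match rests on the 3 cells with neither gene, namely cells 1, 25 and 67. Cell 67 lacks both through its empty stretch. Krt19, also in 93 cells, lies after that stretch and was detected in cell 67, so it could not match. Bmi1 also had a narrow spread, with an interquartile range of 1.24 cycles and a median Ct of 16.0. Its rho with Gapdh Ct was 0.39, above the value of Pecam1. The rho between Pecam1 and Bmi1, 0.41 over 93 cells (r = 0.27), was the highest of Pecam1 with any of 76 assays, and it was 0.32 in the cells with earlier Gapdh and 0.47 in the rest. After it came sma at 0.30 in 69 cells, Cd44, a hyaluronan receptor gene, at 0.26 in 75, Itgae at 0.21 in 34 and Cd40 at 0.19 in 67.

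**Figure D2:**
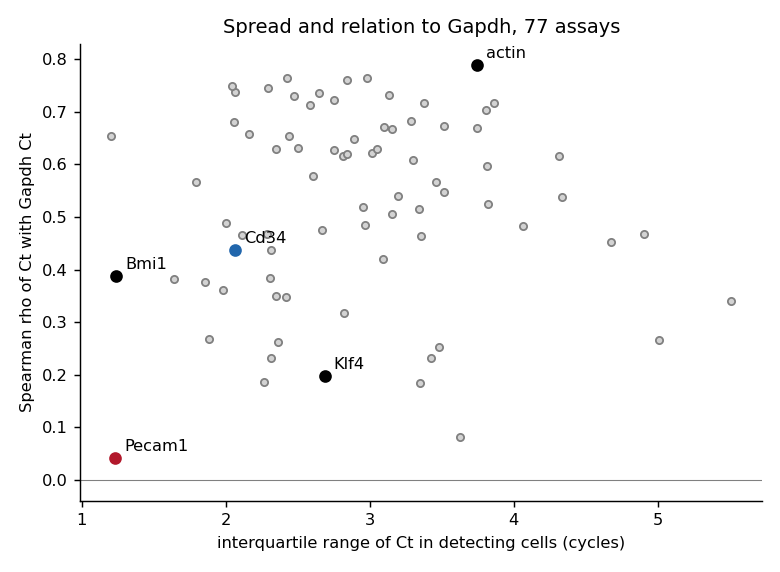
Interquartile range of Ct in the detecting cells (x axis, cycles) against the Spearman rho of Ct with Gapdh Ct (y axis) for 77 assays found in at least 20 cells, 1 point an assay. Pecam1 (red) lies in the lower left corner, with a range of 1.23 cycles and a rho of 0.04, and Cd34 (blue) lies at 2.06 cycles and 0.44 among other assays.

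No assay varied closely with Pecam1, and a few varied against it. Of the 76 assays compared, 0 reached a rho of 0.5, where 25.5% of all 2461 pairs of assays did. The median rho of Pecam1 with them was -0.10, against 0.34 over all pairs, and 53 of its 76 values were below 0. Values of -0.4 or below were rare, in 4 of the 2461 pairs (0.163%), and 3 of those 4 held Pecam1. They were its pairs with Prom1 (CD133, a glycoprotein gene of epithelial and progenitor surfaces) at -0.58 in 37 cells, with the WNT receptor gene Fzd10 at -0.50 in 29 cells and with Pax2, a paired-box gene of the Müllerian duct, at -0.42 in 43 cells. Without the 5 cells whose Pecam1 came after a Ct of 18, described next, they were at -0.40, -0.27 and -0.29, the first just short of -0.4 before rounding. On Ct minus Gapdh Ct, which puts the same Gapdh value into both genes, they were at -0.028, 0.041 and -0.038. After a linear fit on Gapdh Ct was subtracted from each gene, they were at -0.57, -0.49 and -0.45. The 3 pairs were below 0 in the cells with earlier Gapdh, at -0.70, -0.67 and -0.54. In the cells with later Gapdh, Prom1 gave -0.41 in 12 cells, while Fzd10 gave 0.33 in 9 and Pax2 gave 0.17 in 13.

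The latest Pecam1 values lay in cells with much Gapdh and much Epcam. In 5 cells Pecam1 came after a Ct of 18, at 18.8, 18.9, 19.2, 22.0 and 23.4. Gapdh in these cells came at 11.8, 10.6, 11.4, 10.8 and 11.1, all earlier than its median of 13.4. Epcam came at 17.7, 15.9, 16.4, 15.3 and 15.2, and only 11 cells in all had Epcam at or before the latest of these. The 5 cells detected 54 to 60 assays, as many as or more than the median cell. None had a Ct for the leukocyte gene Ptprc, which was found in 57 of all 96 cells. None had one for Eng or Mcam, but these were found in only 13 and 15 of the 96. Cd34, found in 49 of the 96, was in 2 of the 5, at 22.4 and 25.0. Over the 72 cells with both, the rho of Pecam1 with Epcam was -0.36. It was -0.51 in the 40 such cells with earlier Gapdh and -0.35 in the 32 with later Gapdh. Without the 5 cells, a step chosen after the values were seen, the rho of Pecam1 with Gapdh was 0.19 in 88 cells, its SD 0.925 and its rho with Epcam -0.21. The rho with Epcam was also nearer 0 with undetected cells kept at Ct 28, at -0.091. On Ct minus Gapdh Ct, which puts the same Gapdh value into both genes, it was -0.13. Other settings moved it away from 0. It was -0.46 after a linear fit on Gapdh Ct was subtracted and -0.48 after one on the number of detected assays. Pearson's r was -0.54.

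**Figure D3:**
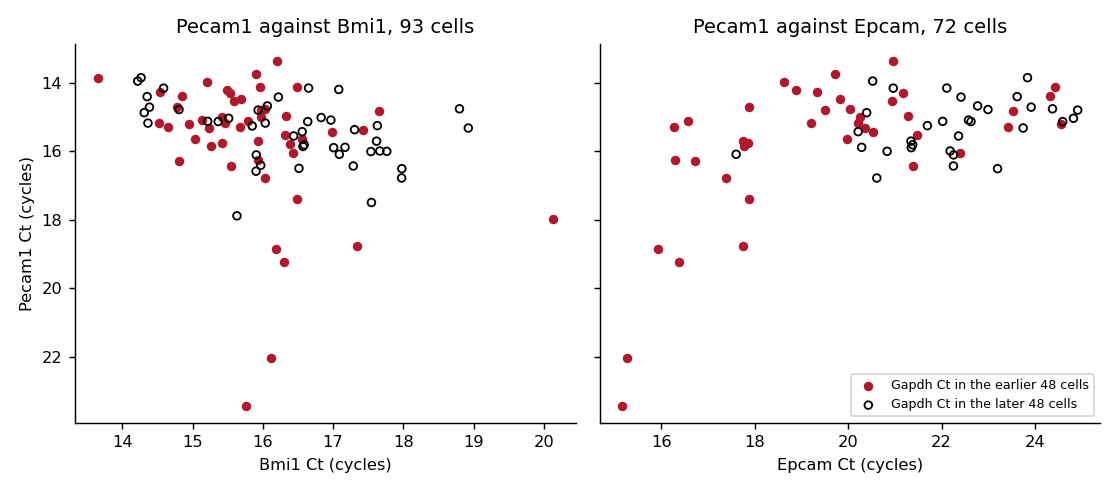
Pecam1 Ct (y axis, cycles, earlier at the top) against Bmi1 Ct (left, 93 cells) and Epcam Ct (right, 72 cells) on the x axis, 1 point a cell, filled for the 48 cells with the earlier Gapdh Ct and open for the other 48. The 5 cells with Pecam1 after 18 cycles are filled points at the early end of Epcam, from 15.2 to 17.7, and hold no such extreme place for Bmi1.

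Cd34 gave a later signal, and which of the 2 genes varied more depended on the measure. In its 49 cells the lowest Ct was 19.4, the median 22.9 and the highest 26.7, with a mean of 23.1 ± 1.73 (SD over cells). The interquartile range was 2.06 cycles, rank 12 from the narrowest among the 78 assays. With a Ct limit of 26 the share was 50.0%, and with a limit of 24 it was 36.5%. Its Ct followed Gapdh in part, at a rho of 0.44 and an r of 0.47 over 49 cells, and at 0.37 and 0.38 without the 2 cells farthest from the median Gapdh Ct. The 34 cells with earlier Gapdh gave a rho of 0.36 and the 15 with later Gapdh gave -0.32.

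The detection of Cd34 differed widely with Gapdh. In the 24 cells with the earliest Gapdh Ct, 9.43 to 11.8, Cd34 was found in 20 (83.3%). It was found in 14 (58.3%) of the next 24, 14 (58.3%) of the third 24 and 1 (4.17%) of the last 24, whose Gapdh Ct began at 14.5. Pecam1 in the same sets was found in 24, 24, 24 and 21 cells. Between the 48 cells with earlier and the 48 with later Gapdh, Cd34 was at 70.8% and 31.2%, a difference of 39.6 percentage points, and Pecam1 was at 100% and 93.8%, a difference of 6.25 points. The median difference over 95 assays was 18.8 points, and 71 of them (74.7%) were at least 10 points higher in the earlier set, among them Cd34 and not Pecam1. With cells split by actin, a cytoskeletal reference assay, in place of Gapdh, Cd34 was at 56.2% (27 of 48) in the earlier and 45.8% (22 of 48) in the later cells. That difference was 10.4 points, below the median of 12.5 over assays. The rho of Cd34 with actin was 0.14. Where the references parted, Cd34 went with Gapdh: of 11 cells early for Gapdh and late for actin 10 had Cd34, and of 11 cells with the opposite order 3 had it. The share of Cd34 at a Gapdh level is thus no direct count of the cells that carry it, and fewer transcripts per cell and fewer carrying cells cannot be told apart.

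**Figure D4:**
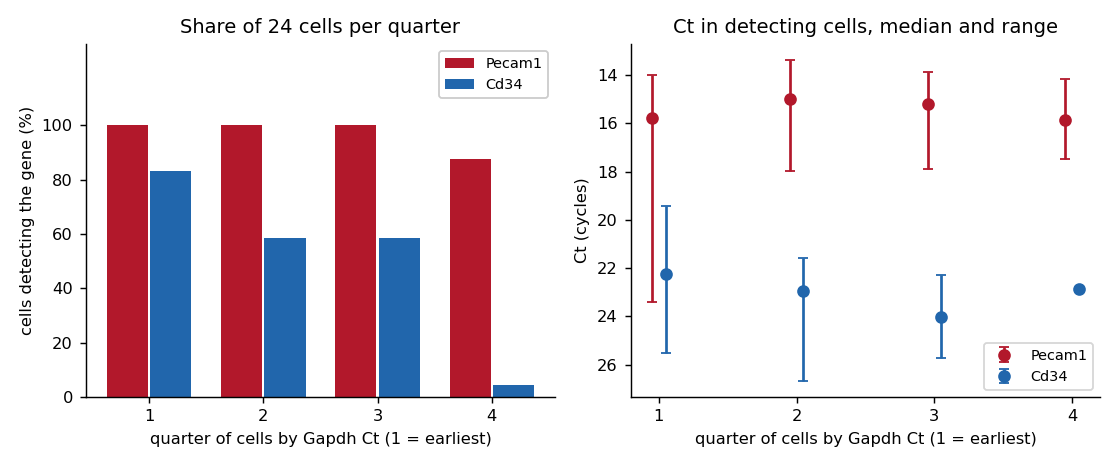
Share of cells detecting Pecam1 (red) and Cd34 (blue) in 4 sets of 24 cells ordered by Gapdh Ct from earliest to latest (left, %), and the Ct of the detecting cells as median with lowest and highest value (right, cycles, earlier at the top). Cd34 is in 20 cells of the earliest set and 1 of the latest, while Pecam1 is in at least 21 of 24 throughout with a median Ct from 15.0 to 15.9.

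The 2 genes did not vary together. All 49 cells with Cd34 also had Pecam1, where 47.5 would be counted from the 2 shares alone, a difference that the 3 cells without Pecam1 limit to very few cells. Over those 49 cells the rho of their Ct values was 0.05 and r was 0.11.

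The other measured endothelial markers were found in few cells. Of the 16 genes on the endothelial list 4 were measured. Eng, the TGF-beta co-receptor endoglin, was found in 13 cells and Mcam (CD146), an adhesion molecule of vessel walls, in 15, against 93 for Pecam1 and 49 for Cd34. All 4 were found together in 2 cells, 3 of them in 12, 2 in 47, 1 in 32 and none in 3. Eng was in 7 of the 49 cells with Cd34 and in 6 of the 47 without it (phi, the correlation of detection, was 0.02), and Mcam was in 9 and 6 (phi = 0.08). In the cells with earlier Gapdh, Mcam was in 7 of 34 with Cd34 and 0 of 14 without it (phi = 0.27). In those with later Gapdh it was in 2 of 15 and 6 of 33 (phi = -0.06). Eng gave a phi of 0.04 and -0.08 in these 2 sets. Cd34 therefore did not gather the cells that had Eng, while for Mcam the 2 sets differed, on few cells. Vim, the intermediate filament gene vimentin that endothelium and stroma usually carry, was in 5 cells with Cd34 and 2 without it. Epcam was not detected in 9 of the 13 cells with Eng, 4 of the 7 with Vim and 1 of the 15 with Mcam. It was not detected in 21 of the 93 cells with Pecam1 and 10 of the 49 with Cd34, where it was missing in 22 of all 96 cells, cell 67 with its empty stretch among them. Pecam1 and Cd34 are described here as genes and not as signs of a cell type.

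Cells with either gene carried the epithelial genes. Of the 7 epithelial genes measured, Krt18 and Krt19 were found in all 49 cells with Cd34, Krt8 and Cd24a in 48, Cdh1 (E-cadherin) in 44, Cd9 in 42 and Epcam in 39. Among the 47 cells without Cd34 they were found in 42 (Krt18), 44 (Krt19), 39 (Krt8 and Cd24a), 41 (Cdh1) and 35 (Cd9 and Epcam). The phi of Cd34 was 0.04 with Cdh1, 0.06 with Epcam, 0.14 with Cd9, 0.18 with Krt19, 0.24 with Krt18 and 0.26 with both Krt8 and Cd24a. Epcam, Cdh1 and Krt18 were found together with Cd34 in 36 cells, and with Pecam1 in 69, which is every cell that had those 3. As Pecam1 was in 93 of all 96 cells, the count for Pecam1 could hardly have differed. Of the 22 cells without Epcam, Cd34 was in 10 (45.5%) and Pecam1 in 21 (95.5%). Of the 74 with Epcam, Cd34 was in 39 (52.7%) and Pecam1 in 72 (97.3%). The Pecam1 Ct had a median of 15.4 without Epcam and 15.2 with it.

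Of the other blood-cell genes, Ptprc had the highest phi with Cd34. Phi with Cd34 was above 0 for 66 of 75 assays found in 10% to 90% of cells. Its median of 0.16 was near the median of 0.15 over all pairs of such assays, so this level was not particular to Cd34. Of the 15 genes on the blood list 5 were measured, Cd34 among them. Ptprc (CD45, the leukocyte phosphatase) was found in 41 of the 49 cells with Cd34 (83.7%) and in 16 of the 47 without it (34.0%), a phi of 0.51. It was 0.50 in the 48 cells with earlier Gapdh and 0.43 in the other 48. Il17ra, an interleukin-17 receptor gene, was in 32 and 16 cells (phi = 0.31), and Cd40, a co-stimulatory receptor gene, in 42 and 26 (phi = 0.33). In the cells with earlier and later Gapdh, Il17ra gave a phi of 0.23 and 0.19 and Cd40 one of 0.45 and 0.11. Kit, the stem cell factor receptor, was in 43 and 38 (phi = 0.10). Of the cells with Cd34 and Epcam, 33 of 39 also had Ptprc, so Ptprc and Cd34 were found together in cells that had the epithelial gene as well. Il17ra, Cd40 and Kit were not counted in this way. The cells with Cd34 detected a median of 56 assays and those without it 48, and the part of this depth in the pairs was not tested.

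On the stromal list 9 of 12 genes were measured, again with Cd34 itself. Nt5e (CD73) was found in 48 of the cells with Cd34 and 35 of those without (phi = 0.34), Mme (CD10) in 43 and 30 (phi = 0.28), and Tbx3, a T-box transcription factor gene, in 17 and 5 (phi = 0.29). Thy1 (CD90), a marker of fibroblasts, was in 9 and 8 (phi = 0.02) and sma, smooth muscle actin, in 35 and 35 (phi = -0.03).

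**Figure D5:**
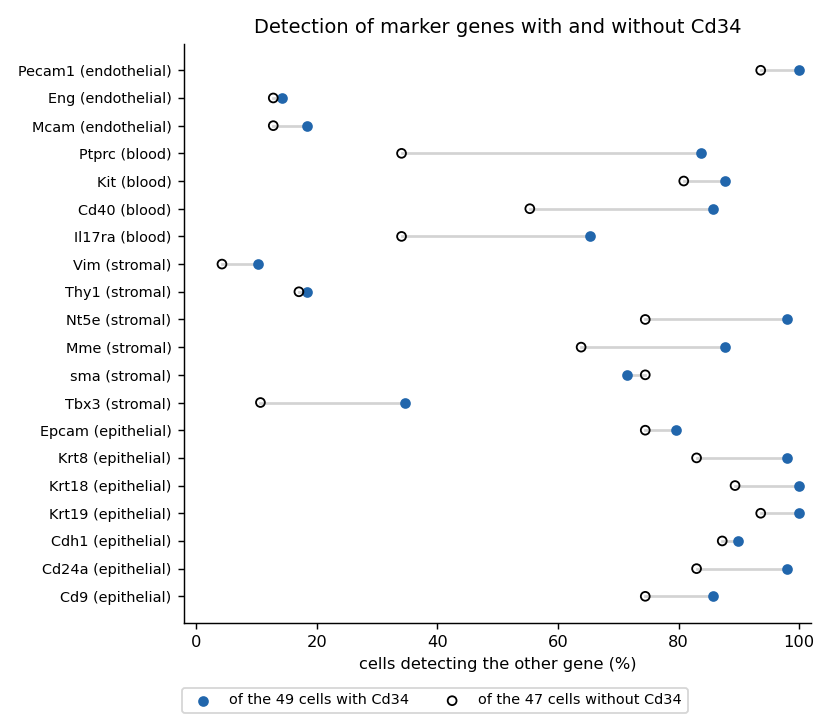
Share of cells in which each marker gene was detected (x axis, %) among the 49 cells with Cd34 (filled) and the 47 cells without it (open), 1 row a gene with its list in brackets. The widest gap is that of Ptprc, 83.7% and 34.0%, while Eng, Thy1, sma and Cdh1 lie close together.

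Over the whole panel, the genes whose detection went most with that of Cd34 were a mixed set that included Ptprc. Of the 75 assays found in 10% to 90% of cells, 5 had a phi of at least 0.4 with Cd34, a share of 6.67% where 6.53% of all 2850 such pairs reached it. They were the aminopeptidase gene Enpep at 0.54 (44 of the 49 cells with Cd34 and 18 of the 47 without), the pluripotency gene Nanog at 0.51 (49 and 28), Ptprc at 0.51, the R-spondin receptor gene Lgr6 at 0.46 (40 and 17) and Tdgf1, the Nodal co-receptor gene Cripto, at 0.44 (44 and 23). Nanog was thus in every cell with Cd34. In the cells with earlier and later Gapdh, Enpep gave 0.46 and 0.49, Nanog 0.47 and 0.45, Lgr6 0.48 and 0.31, and Tdgf1 0.53 and 0.22. The lowest phi were -0.12 with the aminopeptidase gene Anpep, -0.11 with the R-spondin receptor gene Lgr5 and -0.07 with the integrin gene Itgb3. For Pecam1, phi rests on 3 cells and the Pecam1 values ran from -0.10 to 0.50. The highest were with Ctnnb1, Cd164, Prnp, Nt5e and Itgb1 and the lowest with Sox9, Alcam and Itga2.

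In Ct, Cd34 varied most with Sall4, a zinc finger gene of pluripotent cells, at a rho of 0.73 (r = 0.68) in 33 cells. It was followed by Il17ra at 0.69 (r = 0.74) in 32 cells, Cd40 at 0.61 in 42, Dppa2 at 0.58 in 48 and Nanog at 0.56 in 49. In all 9 of 64 assays had a rho of at least 0.5 with Cd34, which is 14.1%, below the 25.5% of all pairs. After a linear fit on Gapdh Ct was subtracted, Il17ra stood at 0.69, Sall4 at 0.61, Dppa2 at 0.42, Nanog and Cd40 at 0.40 and Ptprc at 0.24, where the raw Ct of Ptprc had given 0.55. The raw values differed with Gapdh. In the cells with earlier Gapdh Sall4 gave 0.73 in 25 cells, Il17ra 0.72 in 25, Cd40 0.63 in 32, Dppa2 0.56 in 33, Nanog 0.55 in 34 and Ptprc 0.54 in 29. In the cells with later Gapdh Sall4 gave 0.57 in 8 cells and Il17ra 0.43 in 7, while Cd40 gave -0.16 in 10, Ptprc -0.15 in 12, Nanog 0.0036 in 15 and Dppa2 0.11 in 15. The lowest values were -0.30 with Klf4, a Krüppel-like factor gene, in 48 cells, -0.13 with sma in 35 and -0.11 with Bmi1 in 49. Bmi1, the assay most like Pecam1, was thus among the least like Cd34.

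The scale chosen changed the look of both genes. In the authors' deposited table each value is a fold set first against the Gapdh of its own cell and next against cell 1. Cell 1 had no Ct for Pecam1 or Cd34, so both genes are set against the fill value of 40. On this scale the log2 folds of Pecam1 in the authors' deposited table ran from 7.13 to 25.88 in its 93 cells, and their rho with Gapdh Ct was 0.87, where that of the raw Ct was 0.04. The highest folds of Pecam1 in the authors' deposited table, 25.88, 24.08 and 23.11 on the log2 scale, lay in cells 49, 86 and 87, all low-Gapdh cells with a Pecam1 Ct of 16.5, 16.6 and 14.8. For Cd34 the authors' deposited table gives log2 folds of 5.11 to 11.71 in the 49 detecting cells and of -9.93 to 2.38 in 46 of the cells without a Ct. Cell 67, with neither gene nor Gapdh, has 19.45 for both genes in the authors' deposited table, above every Cd34 value that rests on a recorded Ct.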

How the data were processed

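Per the labels' protocols, cells sorted for CD326 were lysed and preamplified with a 1-step kit and assayed with EvaGreen on a Fluidigm Biomark chip. The authors deposited raw Ct values, per the file headers without normalization, with 40 where no Ct was recorded (4320 of 9216 values, 46.9%), and a table of fold ratios to Gapdh and cell 1. Recomputing those ratios from Ct gave the deposited values to within 6.55e-06 on the log2 scale. Settings for baseline and threshold, and the primers, are not given in the labels or headers. Columns were matched to cells by number. The assay cd31 was named Pecam1 as a synonym and cd34 as a symbol in a RefSeq table (GRCm38.p6), used for names only. Other assays were named from their symbol, synonym, CD designation or protein name, and actin and sma keep the file's names.

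Detection was Ct below 28. Correlations are over cells detecting both genes, at least 20 for a ranking, and phi rankings use assays in 10% to 90% of cells. Cells were also split at the median Gapdh Ct. Genes named are the 2 members, reference assays, marker list members, the 5 most and 3 least alike by rho and by phi, and neighbours in share; Nes and genes outside this rule were named after their values were seen. Members and lists were chosen with earlier results of these data known. No cells were removed as doublets. The correlation step was tested on simulated data whose missing values were placed at random. Detection that differs with Gapdh, like that of Cd34, was not simulated. A share of 96 cells near 50% has an interval of about 10 points on either side. Alternatives changed the Ct limit, the cells kept, the correlation and the reference gene. Work used Python 3.11.15, numpy 2.4.6, pandas 2.3.3, scipy 1.17.1 and matplotlib 3.10.9.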

Additional observations from a re-analysis of the deposited data

How the results depend on the processing

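The main results were recomputed 140 times under the alternatives. Of these values 128 stayed within their counting interval, 1 SD, 0.2 of a correlation or 1.5 times a count, and 12 moved. The cause of a move was not tested except where named. Some of the 128 could not move. As the highest Pecam1 Ct was 23.4, no Ct limit used could alter its share, its median Ct or its rho with Gapdh. Leaving out cell 67, which has neither gene nor Gapdh, could not alter a median Ct or a rho with Gapdh. Without the low-Gapdh cells, or without the 10% of cells with the fewest detected assays, Pecam1 was at 100% in place of 96.9%. In the 63 cells that had all of Gapdh, actin and Hprt its rho with Gapdh was -0.19. With a Ct limit of 24 Cd34 was at 36.5%, had 15 assays with a rho of at least 0.5 in place of 9, and its rho with Pecam1 was -0.16. With actin in place of Gapdh its share differed by 10.4 points and its rho was 0.14. In the 74 cells with Epcam 5 assays reached 0.5 with Cd34. On Ct minus Gapdh Ct, which puts the same Gapdh value into both genes, 9 assays reached 0.5 with Pecam1 and 2 with Cd34, and the rho of Pecam1 with Cd34 was 0.33. Of 247 values of named pairs 231 stayed, 13 moved and 3 changed sign. Those 3 were Pecam1 with Fzd10 at 0.041 on Ct minus Gapdh Ct and, with undetected cells kept at Ct 28, Pecam1 with Pax2 at 0.052 and Cd34 with Klf4 at 0.14. No paired analysis was possible because the labels give only 1 group.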
